A study of Mus musculus with 12 samples.

Results

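Endoplasmic reticulum (ER) chaperone genes were followed in whole retina of diabetic and control mice. The 10 genes were chosen by name, with earlier results of these data known. They are the lectin chaperones Calr and Canx, and the ER members of the 70 and 90 kDa heat shock families Hspa5 (BiP) and Hsp90b1 (Grp94). Also among them are the disulfide isomerases Pdia3, Pdia4 and Pdia6, and the smaller chaperones and cofactors Creld2, Sdf2l1 and Manf. All 10 were measured, among 24570 named genes in all. Diabetic animals were male C57Bl6/J mice that received 1 injection of streptozotocin, a toxin of pancreatic beta cells, into the peritoneum at 160 mg/kg when 8 weeks old and 24 to 26 g in weight, and that had a blood glucose above 15 mM on day 7. Controls were normoglycaemic males of the same strain without streptozotocin, and both groups lived in a 12-hour light and 12-hour dark cycle. Each group held 6 animals with 1 array each, and per the labels retinas were taken 6 weeks after induction. The labels also call the animals outbred, and the series text gives an age below that at injection, so the age at death is not settled. In this model high glucose, lack of insulin and the toxin itself cannot be told apart.

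Proteins that enter the ER are folded there with the help of these chaperones. Calreticulin and calnexin hold glycoproteins through their sugar chains, together with the disulfide isomerase Pdia3, while BiP and Grp94 bind unfolded stretches of the chain and further isomerases form and reshuffle disulfide bonds. When unfolded proteins pile up, the sensors Ire1 (gene Ern1), Perk (Eif2ak3) and Atf6 switch on the unfolded protein response, in which the factors Atf6 and Xbp1 raise transcription of most chaperone genes. Photoreceptors renew their outer segments throughout life, and the membrane proteins for this pass through the ER.

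Atf6 and Xbp1 are known to act at the ER stress response element (ERSE), in which the general factor NF-Y binds CCAAT and Atf6 or Xbp1 binds CCACG after a gap of 9 bases. Stretches of the promoter windows are shown because most of the genes, though not all, share this element. RefSeq windows (GRCm38.p6, 250 bases before to 50 after the annotated start) were found for 9 of the 10 genes. Of these 9, 6 held an exact ERSE on either strand, against 39 of all 32851 windows (0.119%), their own included. Hsp90b1 held 2 elements. The ERSE was searched because it is known from genes of this kind, so its share among them is a description and not a finding of these data. The stretches below run 5′ to 3′ on the strand of the gene, with 10 bases on each side, and capitals mark CCAAT and CCACG or, where the element lies on the opposite strand, their reverse complements CGTGG and ATTGG.
Calr, chr8:84847065-84847103, minus strand: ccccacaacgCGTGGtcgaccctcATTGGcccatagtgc
Canx, chr11:50325790-50325828, minus strand: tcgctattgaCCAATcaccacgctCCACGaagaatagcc
Hspa5, chr2:34772015-34772053, plus strand: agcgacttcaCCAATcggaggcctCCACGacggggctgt
Hsp90b1, chr10:86705628-86705666, minus strand: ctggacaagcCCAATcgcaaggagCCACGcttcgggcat
Hsp90b1, chr10:86705523-86705561, minus strand: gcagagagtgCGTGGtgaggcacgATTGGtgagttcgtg
Pdia6, chr12:17266481-17266519, plus strand: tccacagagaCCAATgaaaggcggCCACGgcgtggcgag
Creld2, chr15:88819510-88819548, plus strand: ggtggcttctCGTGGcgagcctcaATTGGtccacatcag

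Counted from the annotated start, the elements lay between positions -212 and -47, nearest in Hspa5 (-65 to -47) and farthest for the first element of Hsp90b1 (-212 to -194). No exact ERSE lay in the windows of Pdia3, Pdia4 and Sdf2l1. CCAAT alone, on either strand, was in all 9 windows, against 37.4% of all windows, and CCACG alone was in 8, against 32.8%. The window of Pdia3, which is shown for contrast because this gene was among those that fell, held CCAAT on 2 occasions (in capitals) and no CCACG.
Pdia3, chr2:121413652-121413951, plus strand: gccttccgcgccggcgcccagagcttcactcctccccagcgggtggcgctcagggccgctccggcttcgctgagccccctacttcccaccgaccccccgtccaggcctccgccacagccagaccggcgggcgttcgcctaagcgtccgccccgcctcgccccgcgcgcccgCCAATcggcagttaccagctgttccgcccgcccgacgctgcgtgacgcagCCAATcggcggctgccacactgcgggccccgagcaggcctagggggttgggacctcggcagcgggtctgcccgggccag

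Other motifs of the unfolded protein response were searched on both strands as well. The second form of the element, ERSE-II (ATTGG, 1 base of any kind, then CCACG), the core TGACGTGG bound by Xbp1 and Atf6, and the Atf4 site (TGATG, 1 base of any kind, then AA) were in 0 of the 9 windows, against 0.0365%, 0.676% and 3.97% of all windows. CCAAT and CCACG overlap the ERSE by construction. A match is a description of these letters, and no match says only that they are not in this window.

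**Figure D1:**
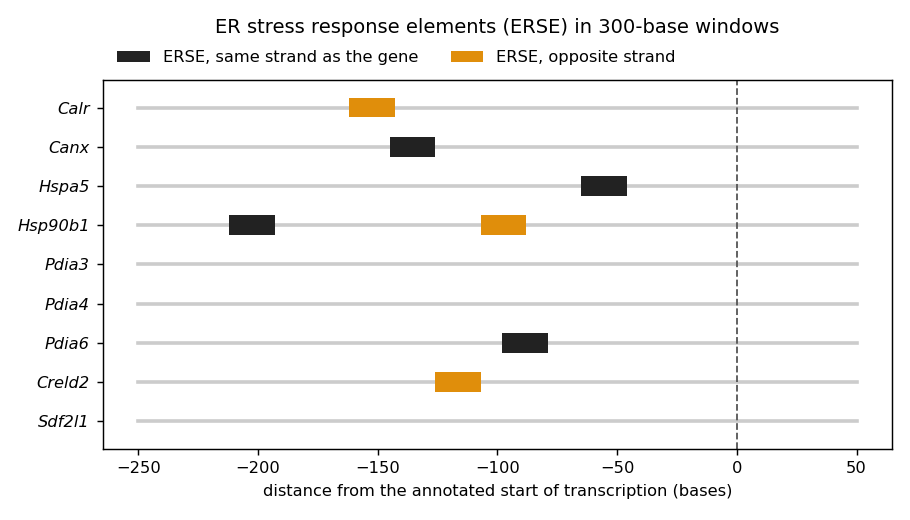
Position of exact ERSE matches in the 300-base promoter windows of the 9 genes with a RefSeq window; the horizontal axis is the distance from the annotated start in bases, black boxes lie on the strand of the gene and orange boxes on the opposite strand. Calr, Canx, Hspa5, Pdia6 and Creld2 have 1 box each, Hsp90b1 has 2, and all lie before the start.

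Expression values were log2 RMA values, in which all arrays share 1 distribution with a median of 5.73. Of the 10 chaperone genes, 3 fell in diabetic retinas (Calr, Pdia3 and Creld2, each to about 81% to 82% of the control level) and 0 rose, by limma's moderated test with Benjamini-Hochberg adjustment over all 24570 genes at 0.05. The same test called 1.77% of all genes lower and 1.47% higher. All 10 values of diabetic minus control were below 0, with a median of -0.18 on the log2 scale, whereas 51.8% of all genes were below 0 and the median over all genes was 0.00. Among the 6143 genes above the 75th percentile of level, where 8 of the 10 lie, 2.9% were called lower and the median was 0.00. The 10 genes vary together between animals, as shown further on, so that their common direction is not 10 separate observations. In whole retina, fewer cells of a type and less RNA per cell cannot be told apart.

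Calr encodes calreticulin, the soluble lectin chaperone, which also stores calcium in the ER. Its log2 values were 11.67, 11.49, 11.62, 11.47, 11.73 and 11.77 in diabetic retinas 1 to 6, against 11.96, 12.04, 11.97, 11.80, 11.81 and 11.90 in control retinas 1 to 6. The groups did not overlap, but diabetic 6 came close to control 4. Calr was lower by 0.29 ± 0.06 (log2, SE, n = 6 per group; limma adjusted p = 0.0286), which is 82.0% of the control level. With 1 of the 12 arrays left out at a time, Calr failed to pass on 6 occasions (without control 1, 2, 3 or 6, or diabetic 3 or 4), with an adjusted p of up to 0.0584 and a change of -0.32 to -0.26.

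Canx encodes calnexin, which does the same work as calreticulin but is anchored in the ER membrane. Its values were 11.47, 11.27, 11.38, 11.40, 11.36 and 11.53 in diabetic retinas, against 11.50, 11.49, 11.62, 11.47, 11.50 and 11.47 in control retinas. Diabetic 1 and 6 lay within the control range, and the others lay below it. The change was -0.11 ± 0.04 (limma adjusted p = 0.172, 95% interval -0.20 to -0.01), so Canx did not pass. Within single arrays, the log2 ratio of Calr to Canx was 0.07 to 0.38 in diabetic and 0.32 to 0.54 in control retinas, a difference of -0.18 ± 0.05 (two-sided exact permutation p = 0.00866, adjusted p = 0.0693 over 8 pairs). The unequal change of the soluble and the membrane lectin chaperone thus did not pass by the exact test after adjustment over the pairs. It passed by limma on the 8 ratios (adjusted p = 0.0307) and, by the exact test, without diabetic 5 (adjusted p = 0.0173).

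Pdia3 (ERp57), the isomerase that works with calreticulin and calnexin on glycoproteins, also fell. Its values were 9.83, 9.67, 9.83, 9.67, 9.93 and 9.88 in diabetic retinas, against 10.09, 10.12, 10.22, 10.03, 9.97 and 10.13 in control retinas. The groups did not overlap. The change was -0.29 ± 0.05 (limma adjusted p = 0.0191), or 81.7% of the control level, and it passed whichever of the 12 arrays was left out (adjusted p 0.0168 to 0.0408).

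Creld2, a small ER protein with disulfide isomerase activity that is induced by ER stress, had the smallest p of the group. Its values were 7.39, 7.54, 7.32, 7.36, 7.45 and 7.40 in diabetic retinas, against 7.69, 7.86, 7.70, 7.66, 7.57 and 7.78 in control retinas. Again the groups did not overlap, with diabetic 2 and control 5 closest to each other. The change was -0.30 ± 0.05 (limma adjusted p = 0.0126), or 81.3% of the control level, and it too passed whichever array was left out (adjusted p 0.00928 to 0.0322). Creld2 ranked 96th, Pdia3 183rd and Calr 346th of all genes by p.

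These 3 genes were also the members whose groups did not overlap with the diabetic arrays lower, a pattern that 1.62% of all genes had. When group labels were exchanged in every possible way (exact permutation, two-sided), each of the 3 had p = 0.00216, the smallest that 6 against 6 arrays can give. Adjusted over all genes this is 0.0762, so none passed by that test.

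**Figure D2:**
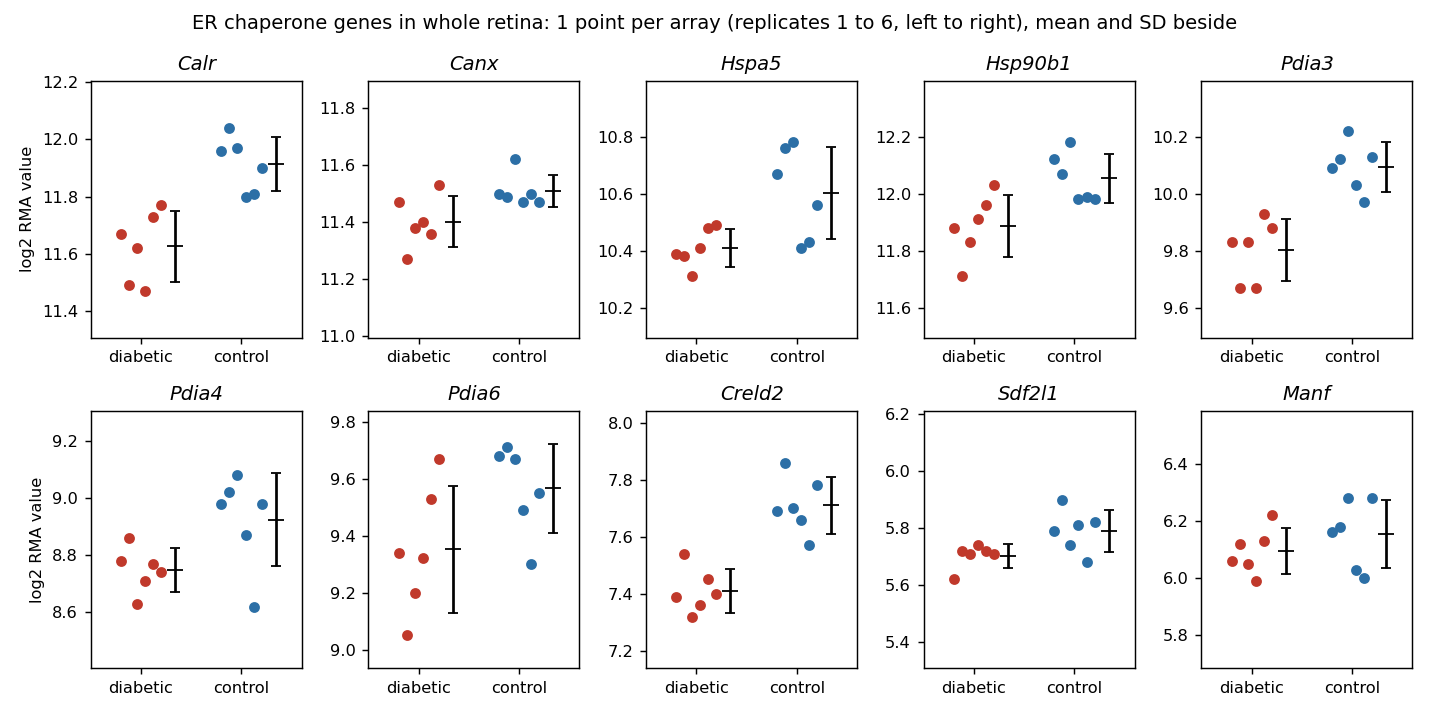
Log2 RMA value of each ER chaperone gene (1 panel per gene, each spanning 0.9 log2 units), with 1 point per array for 6 diabetic (red, left) and 6 control (blue, right) retinas in the order of the replicate number, and the mean with its SD in black. The red and blue points do not overlap for Calr, Pdia3 and Creld2 and overlap for the other 7 genes.

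Hspa5 encodes BiP, the central ER chaperone and the partner that holds the stress sensors inactive. Its values were 10.39, 10.38, 10.31, 10.41, 10.48 and 10.49 in diabetic retinas, against 10.67, 10.76, 10.78, 10.41, 10.43 and 10.56 in control retinas. Control 4 and 5 lay among the diabetic arrays, while the other 4 controls lay above all of them, and the SD was 0.07 in diabetic and 0.16 in control retinas. The change was -0.19 ± 0.07 (limma adjusted p = 0.133, 95% interval -0.33 to -0.04). Its cytosolic relative Hspa8 had a change of -0.17 ± 0.05 (adjusted p = 0.0916), and the difference of the 2 changes was -0.02 ± 0.05 (exact permutation p = 0.775, 95% interval -0.12 to 0.09).

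Hsp90b1 (Grp94) folds a narrower set of clients, among them integrins and Toll-like receptors. Its values were 11.88, 11.71, 11.83, 11.91, 11.96 and 12.03 in diabetic retinas, against 12.12, 12.07, 12.18, 11.98, 11.99 and 11.98 in control retinas. Only diabetic 6 reached the control range. The change was -0.17 ± 0.05 (limma adjusted p = 0.106, 95% interval -0.28 to -0.05). The cytosolic relative Hsp90ab1 fell by 0.27 ± 0.05 (adjusted p = 0.0191), at 9.58 ± 0.09 in diabetic and 9.86 ± 0.09 in control retinas (SD, n = 6 each). The difference between both changes was 0.11 ± 0.05 (exact permutation p = 0.0433, adjusted p = 0.115 over 8 pairs).

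Pdia4 (ERp72), an isomerase found in complexes with BiP and Grp94, had values of 8.78, 8.86, 8.63, 8.71, 8.77 and 8.74 in diabetic retinas, against 8.98, 9.02, 9.08, 8.87, 8.62 and 8.98 in control retinas. Control 5 was the lowest of all 12 arrays, and the other 5 controls lay above every diabetic array. The change was -0.18 ± 0.07 (limma adjusted p = 0.167). Without control 5 it was -0.24 with an adjusted p of 0.0236, so this 1 array decided the call; without any of the other 11 arrays Pdia4 did not pass. Set against P4hb, the founding member of the isomerase family (change -0.09 ± 0.05, adjusted p = 0.358), the difference was -0.08 ± 0.06 (exact permutation p = 0.221).

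Pdia6 (P5), an isomerase that also damps the sensors Ire1 and Perk, had the largest SD of the 10 genes among diabetic animals. Its values were 9.34, 9.05, 9.20, 9.32, 9.53 and 9.67 in diabetic retinas, against 9.68, 9.71, 9.67, 9.49, 9.30 and 9.55 in control retinas. Only diabetic 2 and 3 lay below all controls, and the SD was 0.22 in diabetic and 0.16 in control retinas. The change was -0.21 ± 0.10 (limma adjusted p = 0.270, 95% interval -0.44 to 0.02), and that of Pdia6 minus that of Pdia3 was 0.08 ± 0.08 (exact permutation p = 0.338).

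Sdf2l1 forms a complex with the ER co-chaperone Dnajb11 and with BiP. Its values, close to the array median, were 5.62, 5.72, 5.71, 5.74, 5.72 and 5.71 in diabetic retinas, against 5.79, 5.90, 5.74, 5.81, 5.68 and 5.82 in control retinas. Diabetic 1 was the lowest of all arrays, the other diabetic arrays lay within the control range, and controls 1, 2, 4 and 6 lay above all of them. The change was -0.09 ± 0.03 (limma adjusted p = 0.157, 95% interval -0.16 to -0.02). Its constitutive relative Sdf2 had a change of 0.07 ± 0.07 (adjusted p = 0.628), and the difference was -0.16 ± 0.07 (exact permutation p = 0.0303, adjusted p = 0.115 over 8 pairs; 0.0380 by limma on the 8 ratios).

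Manf, an ER cofactor of BiP that is also secreted and protects neurons, had values of 6.06, 6.12, 6.05, 5.99, 6.13 and 6.22 in diabetic retinas, against 6.16, 6.18, 6.28, 6.03, 6.00 and 6.28 in control retinas. The groups overlapped almost fully. The change was -0.06 ± 0.05 (limma adjusted p = 0.594, 95% interval -0.18 to 0.06). Its relative Cdnf, at 5.66 ± 0.04 in diabetic and 5.67 ± 0.04 in control retinas (SD, n = 6 each), differed by -0.02 ± 0.02 (adjusted p = 0.750), and the pair by -0.04 ± 0.05 (exact permutation p = 0.446). Creld2 and its relative Creld1 (change -0.17 ± 0.07, adjusted p = 0.189) differed by -0.12 ± 0.07 (exact permutation p = 0.0931, adjusted p = 0.186 over 8 pairs; 0.0173 without diabetic 2). Of the 8 pairs, 0 passed after adjustment by the exact test and 3 had an unadjusted p under 0.05.

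**Figure D3:**
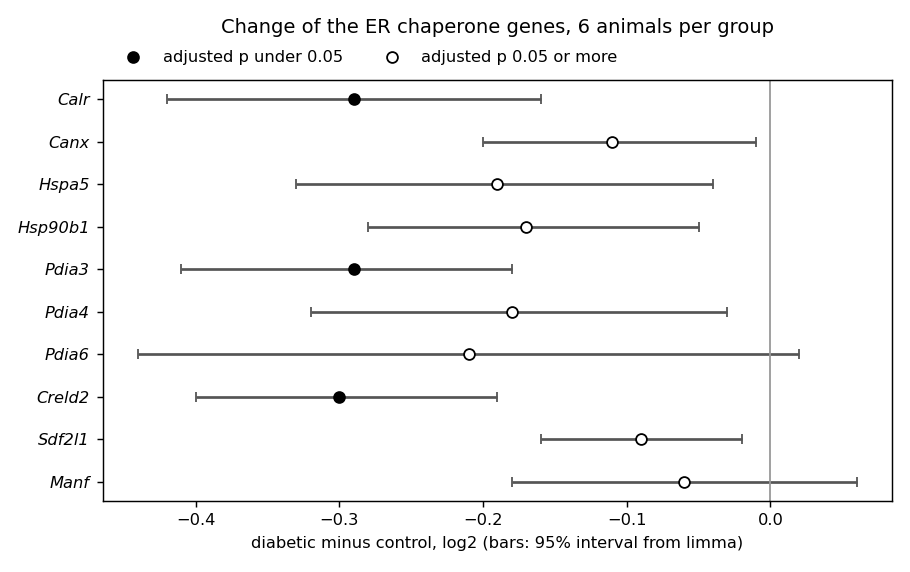
Diabetic minus control on the log2 scale for each ER chaperone gene, with the 95% interval from limma (6 animals per group) and filled points where the p adjusted over all genes is under 0.05. All 10 points lie left of 0, from -0.30 for Creld2 to -0.06 for Manf, and the intervals of Pdia6 and Manf include 0.

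The spread among animals was shared between the genes. Relative to the control mean of each gene, the median over the 10 genes was -0.19, -0.23, -0.28, -0.20, -0.14 and -0.09 in diabetic retinas 1 to 6, against 0.02, 0.10, 0.12, -0.07, -0.13 and 0.01 in control retinas 1 to 6. Control 5 was thus level with diabetic 5 and below diabetic 6. It had the lowest control value for 6 of the 10 genes and control 4 for the other 4, while control 2 and 3 had the highest for 9 between them. Diabetic 6 had the highest diabetic value for 6 genes. The normalization fixes the overall level of each array, so a shift of a whole array would not show.

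Markers of tissue next to the retina were also highest in diabetic 6: the mean of the 11 lens markers was 5.86 to 7.75 in diabetic and 6.00 to 6.71 in control retinas, and that of the 9 pigment epithelium and melanocyte markers 6.63 to 7.74 in diabetic and 6.63 to 7.20 in control retinas, with 0 of either list past the test. Cryaa, the main lens crystallin, was 11.73 in diabetic 6 and 10.98 in diabetic 2, but also 10.02 in control 4 and 9.47 in control 2. It was lowest in diabetic 5 (6.30). A change below 0 was seen for 1 of the 11 lens markers and 3 of the 9 pigment epithelium and melanocyte markers. Without diabetic 6, the same 3 chaperone genes passed by limma, at adjusted p of 0.0294 for Calr, 0.0281 for Pdia3 and 0.0267 for Creld2. With the lens mean as a covariate, they passed as well, at adjusted p of 0.0449, 0.0352 and 0.0212 in the same order. Diabetic 6 was also the diabetic array nearest the controls (median -0.09), and without it the changes were -0.32, -0.31 and -0.30. Against the control mean, diabetic 6 was at -0.15 for Calr and -0.21 for Pdia3, so leaving it out could not shrink these 2 changes. For Creld2 it was at -0.31, close to the change of -0.30 over all arrays. Whether adjacent tissue played a part was not tested.

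**Figure D4:**
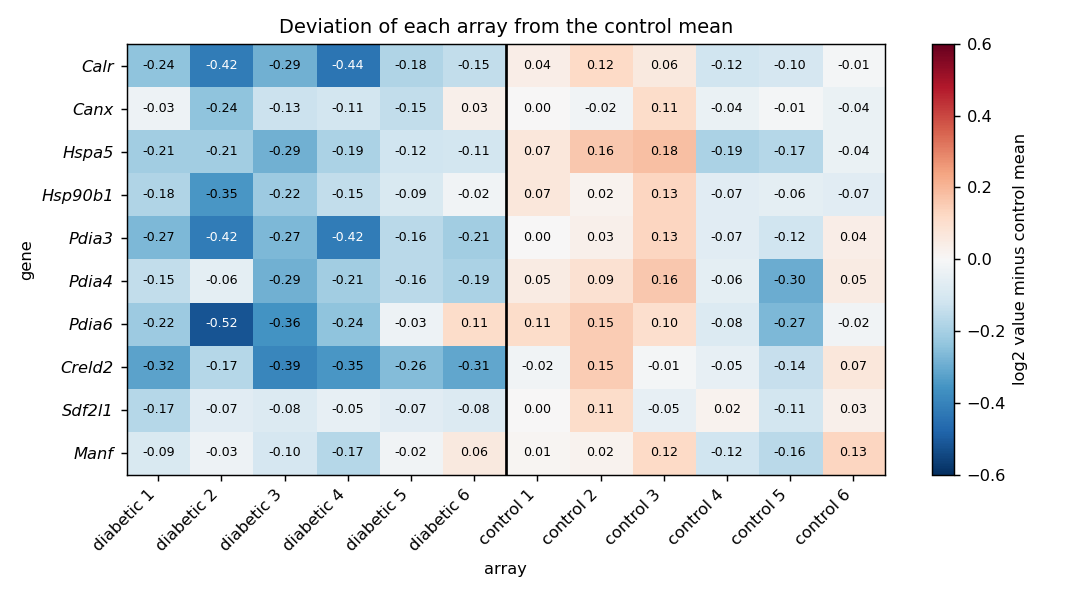
Log2 value of each ER chaperone gene in each array minus the control mean of that gene, with diabetic arrays left of the line and control arrays right of it; blue is below and red above the control mean. Diabetic arrays 1 to 5 are below 0 for all 10 genes and diabetic 6 for 7, while control 5 is below 0 for all 10 and reaches -0.30 for Pdia4.

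Within a group, most chaperone genes were high in the same animals. With group means removed, 41 of the 45 pairs of genes had a Pearson r above 0 over the 12 arrays, with a median of 0.53; it was 0.33 over the 6 diabetic and 0.70 over the 6 control arrays. These are descriptions without a test, and values of 1 array share its RNA and its normalization. The closest pair was Calr with Pdia3 (0.88), the soluble lectin chaperone and its isomerase partner, and Hsp90b1 with Pdia6 reached 0.88 as well. Creld2 had r = 0.76 with Pdia4, 0.64 with Sdf2l1 and 0.57 with Manf, but -0.32 with Canx and -0.14 with Hsp90b1. Pdia4 had 0.74 with Hspa5, 0.72 with Manf and 0.43 with Sdf2l1. Hspa5 had 0.70 with Calr.

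Compared with the mean of the other 9 genes, r over 12 arrays was highest for Hspa5 (0.87), Pdia6 (0.85), Calr (0.81), Manf (0.78) and Pdia3 (0.76), and lowest for Sdf2l1 (0.26), Canx (0.39) and Creld2 (0.41). It was above 0.5 for 7 of the 10, against 8.81% of the 12280 genes at or above the array median. Related genes, compared with the mean of the 10, often shared this. It was above 0.5 for 8 of 23 cytosolic chaperones, 9 of 28 genes of ER translocation and 10 of 36 other ER folding helpers. For ER-associated degradation it was 4 of 21, for unfolded protein response sensors and effectors 3 of 23, and for mitochondrial chaperones 2 of 8. High r is thus not particular to the 10 genes. Creld2 and Pdia4 each had r of 0.02 among diabetic arrays, against 0.69 and 0.93 among control arrays. The difference between the groups was not tested, and with 6 arrays each such values are loose.

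The genes outside the group that were most like its mean over the 12 arrays were Ypel5 (r = 0.95), Grcc10 (0.94), the proteasome subunit Psmc3 (0.91), Hspa8 (0.89), Sdhaf4 (0.89), C1d (0.89), Mir3091 (0.89), the ATP synthase subunit Atp5pb (0.88), the COP coat subunit Cope (0.88) and Psmc2 (0.88). Their changes ranged from -0.19 for Atp5pb (adjusted p = 0.150) to 0.06 for Ypel5 (adjusted p = 0.521), and 0 of the 10 passed. Only 5 of the 10 were also among the first 10 by Spearman's rank correlation, so the order is not firm.

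**Figure D5:**
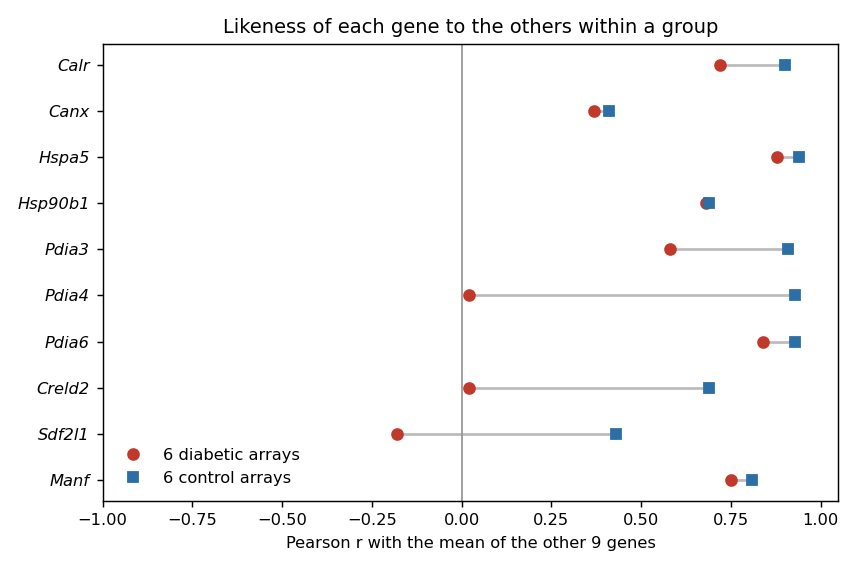
Pearson r of each ER chaperone gene with the mean of the other 9 over the 6 diabetic arrays (red circles) and over the 6 control arrays (blue squares). Control values are 0.41 or higher for all 10 genes, whereas Pdia4, Creld2 and Sdf2l1 are at 0.02, 0.02 and -0.18 among diabetic arrays.

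Other helpers of ER folding were lower and higher in about equal number. Of 36 of them (isomerases, BiP cofactors, glycan-processing enzymes, prolyl isomerases), 21 were below 0 with a median change of -0.01, and 0 passed by limma in either direction, while 4 were lower and 3 higher at an unadjusted p under 0.05, which 21.0% of all genes had (11.3% on the lower side). The smallest p was that of the prolyl isomerase Fkbp2, with 7.21, 6.91, 7.22, 7.07, 7.22 and 7.11 in diabetic retinas, against 7.48, 7.53, 7.56, 7.39, 7.12 and 7.50 in control retinas. Apart from control 5, all controls lay above the diabetic arrays. Its change was -0.31 ± 0.08 (adjusted p = 0.0539; 0.0127 without control 5, and 0.0250 to 0.0434 with array weights, a variance trend or a filter on dim genes), and that of Txndc11 was -0.09 ± 0.03 (adjusted p = 0.0844).

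Of 21 genes of ER-associated degradation, which exports misfolded proteins to the proteasome, 9 were below 0 (median change 0.01) and 0 passed by limma, with 3 lower and 4 higher at an unadjusted p under 0.05, against the same 21.0% of all genes. Sel1l, the scaffold of the ubiquitin ligase complex, changed by 0.11 ± 0.03 (adjusted p = 0.0888), and Edem2, a mannosidase that marks misfolded glycoproteins, by -0.18 ± 0.06 (adjusted p = 0.0961). Without diabetic 2, Edem2 changed by -0.22 and passed (limma adjusted p = 0.0332). The 8 mitochondrial chaperones and proteases had a median change of 0.04 with 0 past limma's test. At an unadjusted p under 0.05, which 21.0% of all genes had, there was 1 of the 8 in each direction. Among them the protease subunit Clpp changed by -0.17 ± 0.04 (adjusted p = 0.0573) and the chaperone Hspa9 by 0.10 ± 0.03 (adjusted p = 0.131). Clpp passed by limma with array weights (adjusted p = 0.0348) and with either filter on dim genes (0.0473). It also passed without diabetic 2, with a change of -0.22 (0.00197).

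Of 23 sensors and effectors of the unfolded protein response, 4 fell and 0 rose (16 below 0, median change -0.04), against 1.77% and 1.47% of all genes. At an unadjusted p under 0.05, which 21.0% of all genes had (11.3% on the lower side), 6 were lower and 1 higher. Xbp1, which drives chaperone genes, was 9.21, 9.25, 9.11, 9.03, 9.25 and 9.07 in diabetic retinas, against 9.52, 9.60, 9.50, 9.28, 9.31 and 9.40 in control retinas. Its groups did not overlap, though diabetic 2 and 5 came close to control 4. It fell by 0.28 ± 0.06 (adjusted p = 0.0310), but did not pass without control 1, 2, 3 or 6 or diabetic 3, 4 or 6 (adjusted p up to 0.0645), nor with the lens mean (0.0563) or the rod mean (0.0509) as a covariate. Atf6b, the relative of the sensor Atf6, fell by 0.26 ± 0.05 (adjusted p = 0.0216; 0.0513 without diabetic 4), and Ppp1r15a, the phosphatase subunit that restores translation after Perk has acted, fell by 0.19 ± 0.03 (adjusted p = 0.0148). Asns, the asparagine synthetase gene and a target of Atf4, fell by 0.29 ± 0.06 (adjusted p = 0.0334), but did not pass without control 1 or 3 or diabetic 1, 3, 4, 5 or 6 (adjusted p up to 0.0668), nor with the lens covariate (0.0572).

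Genes that bring chains into the ER went both ways. Of 28 genes of translocation and N-glycosylation, 19 were below 0 (median change -0.05), and 2 fell and 2 rose, against 1.77% and 1.47% of all genes. At an unadjusted p under 0.05, which 21.0% of all genes had (11.3% on the lower side), 9 were lower and 4 higher. Ssr4, a subunit of the translocon-associated complex, rose by 0.33 ± 0.05 (adjusted p = 0.0128), with 6.96 to 7.10 in diabetic and 6.48 to 6.81 in control retinas. The signal recognition particle subunit Srp68 rose by 0.22 ± 0.04 (adjusted p = 0.0255; 0.0515 without diabetic 1), whereas the translocon subunit Sec61g fell by 0.29 ± 0.06 (adjusted p = 0.0286) and the particle subunit Srp9 by 0.10 ± 0.02 (adjusted p = 0.0379). Sec61g did not pass without control 1, 2 or 6 or diabetic 1, 3, 4 or 6 (adjusted p up to 0.0608), nor with the lens covariate (0.0520). Srp9 passed only without control 1 or 5 or diabetic 6 when 1 array was left out, and did not pass with the rod covariate (0.0543), a variance trend (0.112), cyclic loess (0.0603) or only genes above the array median (0.102).

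Of 23 cytosolic chaperones, 15 were below 0 (median change -0.06), and 2 fell and 1 rose, against 1.77% and 1.47% of all genes. At an unadjusted p under 0.05, which 21.0% of all genes had (11.3% on the lower side), 9 were lower and 4 higher. Beside Hsp90ab1, the co-chaperone Bag3 fell by 0.15 ± 0.03 (adjusted p = 0.0436), and Hsp90aa1, at a level below the array median, rose by 0.21 ± 0.05 (adjusted p = 0.0475). When 1 array was left out, Bag3 passed only without control 4 or diabetic 5, and Hsp90aa1 only without control 3 or diabetic 6. Neither passed with the lens covariate (0.0706 and 0.0577) or the rod covariate (0.0695 and 0.0762), and Bag3 did not pass with a variance trend (0.0613), cyclic loess (0.0583) or only genes above the array median (0.0516). Hspa8, Hsp90aa1 and Hsp90ab1 have many processed pseudogenes, and whether the probes tell them apart was not tested.

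Genes outside the group that hold an ERSE lay on both sides of 0. Of the 31 measured genes with an exact ERSE in a window, 25 are outside the group. Of these 25, 14 were below 0 with a median change of 0.00. By limma 1 fell (Esp18, by 0.49 ± 0.10, adjusted p = 0.0323) and 0 rose, against 1.77% and 1.47% of all genes. Many of the 25 lay below the array median of 5.73 (for example Acnat2 at 5.25 and Esp16 at 5.11), where a fall could hardly show. The median change of the 25 thus says little about genes with an ERSE that are expressed in retina. The 25 include other genes of the ER, some of which are named here after their values were seen. Dnajc3, an inhibitor of Perk and BiP cofactor, changed by -0.02 ± 0.04 (adjusted p = 0.860) and the oxidase Ero1b by 0.06 ± 0.08 (adjusted p = 0.719). The ubiquitin ligase Syvn1 changed by -0.05 ± 0.03 (adjusted p = 0.389) and Derl3, below the array median, by -0.05 ± 0.02 (adjusted p = 0.148). Alg12 had the largest change of these, at -0.21 ± 0.05 (adjusted p = 0.0636). Alg12 and 1700122E12Rik hold the element in windows that overlap those of Creld2 and Calr. Among the chaperone genes themselves, the 6 with an ERSE changed by -0.30 to -0.11, with 2 past the test. Of those whose window held none, Pdia3 changed by -0.29 and passed, while Pdia4 (-0.18) and Sdf2l1 (-0.09) did not.

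The windows of 4 chaperone genes overlap that of a gene on the opposite strand. That of Creld2 shares 173 bases, its ERSE included, with the window of Alg12, a mannosyltransferase that builds the precursor of N-linked glycans. Alg12 changed by -0.21 ± 0.05 (adjusted p = 0.0636) beside -0.30 ± 0.05 for Creld2. Calr shares 285 bases with 1700122E12Rik (0.04 ± 0.01, adjusted p = 0.163, below the array median) and Pdia3 shares 209 bases with Catsper2 (-0.11 ± 0.05, adjusted p = 0.235). Canx shares 178 bases with Gm46280, which was not analysed here.

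Defining markers of retina were high in both groups. The mean of 10 rod markers was 12.65 to 12.72 in diabetic and 12.67 to 12.75 in control retinas, and that of 7 Mueller glia markers was 10.16 to 10.39 and 10.14 to 10.41. Plasma and B cells, which are rich in ER chaperones, had 2 of 9 markers above the array median, and the 9 averaged 5.71 to 5.75 in diabetic and 5.66 to 5.77 in control retinas, with 0 past the test. Those of ganglion cells (8.55 to 8.82 and 8.58 to 8.93), macrophages and microglia (5.56 to 5.63 and 5.60 to 5.66), red blood cells (5.25 to 5.29 in both) and skeletal muscle (5.47 to 5.55 and 5.47 to 5.54) also overlapped between diabetic and control retinas, with 0 members called. The animals carry label numbers that do not overlap between the groups; if these mark cohorts or days, they and diabetes cannot be told apart.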

How the data were processed

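Total RNA of whole retina was hybridised after biotin labelling by the Affymetrix procedure, per the labels' protocols. The deposited values were log2 values made with RMA (background correction, quantile normalization and probe summary), per the submitters' processing notes; its version and the genome build are not given in the sources used here. Once sorted, values were identical in all 12 arrays, so a change common to most genes would not show, and probe signals over background were not used here. Of 24973 lines (Entrez gene numbers), 24015 were named by the platform annotation and 559 by RefSeq (GRCm38.p6), and the brightest line was kept for 4 repeated symbols. No filter was applied.

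Diabetic minus control was fitted with limma 3.58.1 (R 4.3.3), checked on simulated data, with Benjamini-Hochberg adjustment over 24570 genes. Precision is limited by the array number. Ratios within 8 pairs of genes were tested with a two-sided exact permutation test. The members, lists and pairs were chosen with earlier results of these data known. Named are all members, genes of each list past the test (otherwise the 2 of smallest p), the second gene of each pair, the 10 genes most like the member mean, and Cryaa. One gene that this rule names is not reported here. Overlapping windows and other genes with an ERSE were added after the data were seen. Alternatives covered filters on dim genes, variance model, array weights, cyclic loess, covariates, a replicate block, an exact test and each array left out. Protein sequences were not analysed here. Replicates were separate animals per the labels. The replicate numbers did not pair the arrays.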

Additional observations from a re-analysis of the deposited data

Results flagged for a closer look

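In the 20 groups of 6 arrays (10 genes in 2 groups), 2 arrays stood apart from the rest of their group, with a gap to the nearest array that took most of the group's range, where chance gives about 1 in 20. These were control 3 for Canx, which was high at 11.62 (ratio 0.763), and diabetic 1 for Sdf2l1, which was low at 5.62 (ratio 0.695).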

How the results depend on the processing

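All 10 chaperone genes kept a change below 0 in all 22 alternatives, and their median stayed between -0.23 and -0.15. The filters, the variance model, the replicate block and the exact test leave the size of a change as it is by construction, so these could not turn its sign. The alternatives left 3 genes lower except the following. The replicate block, the exact test and some runs without 1 array gave fewer, and leaving out control 5 gave 4, as Pdia4 passed. The exact test per gene gave 0 (5093 of all genes had an unadjusted p under 0.05). Its smallest adjusted p over all genes was 0.0762, so no gene could pass it here. For limma, a threshold of 0.01 gave 0 and a threshold of 0.1 gave 3. Genes called in all numbered 472 with the lens covariate, 464 with the rod covariate, 506 with the replicate block, 0 with the exact test and 325 to 835 with 1 array left out (fewer by over 1.5 times without control 1, 2, 3 or 6 or diabetic 1, 3, 4 or 6), against 797. Called genes of the 6 lists, recomputed after the data were seen, numbered 6, 7, 5, 0 and 4 to 15 in the same order, against 11. Of the 8 pairs, limma passed 2 (Calr with Canx, adjusted p = 0.0307, and Sdf2l1 with Sdf2, 0.0380), and the exact test 0 to 1 with 1 array left out, the 1 being Calr with Canx without diabetic 5 and Creld2 with Creld1 without diabetic 2 (adjusted p = 0.0173 each). Hspa5 against Hspa8, at -0.02, ranged from -0.04 to 0.01 in such runs, with the sign turned without diabetic 3, control 2 or control 3, and did not pass. By Spearman's rank correlation, 5 of the 10 most alike genes stayed.

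Replicate numbers gave no pairing: deviations of same-numbered arrays correlated at -0.17 to 0.18, and 1 of 6 diabetic arrays correlated best with its own number. With the replicate block, 2 chaperone genes passed, and Calr had an adjusted p of 0.0632. Listed genes that lost their call with it were Ppp1r15a (0.0521), Asns (0.104), Srp68 (0.0919), Srp9 (0.0982), Hsp90ab1 (0.0767), Bag3 (0.107) and Hsp90aa1 (0.0614).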
